A study of Mus musculus with 4 samples.

Results

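The genes described here are 39 genes that mark the cells of brain vessels, 27 of endothelial cells and 12 of mural cells, the pericytes and smooth muscle cells that wrap the endothelium. They were chosen by name, from their known cell type and role and with earlier results of these data known. Each was read from the probe set of highest mean that names this gene alone. Such a probe set was found for 37 of the 39 genes, 25 endothelial and 12 mural, among 18194 genes measured in all. *Ly6c1* shares its only probe set with *Ly6c2*, and *Ly6a* has no entry in the annotation used, so both were left out. The samples were whole cortex of 3-month-old C57BL/6J mice, taken 24 h after permanent occlusion of the left middle cerebral artery (MCAO), either from wild-type (WT) mice or from *P4htm*-/- mice. The latter lack the transmembrane prolyl 4-hydroxylase P4H-TM, an oxygen-dependent enzyme, throughout the body. From both genotypes the injured ipsilateral and the uninjured contralateral cortex were taken, so that all 4 groups had undergone surgery and none was an unoperated control. The mice had been perfused with heparinised saline, and the RNA of 4 mice was pooled for each of the 4 arrays.

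The endothelium of brain vessels forms the blood-brain barrier. Its cells are sealed by junction proteins, carry few transport vesicles, and hold transporters that bring nutrients in or pump foreign compounds out. Pericytes lie on the capillaries within the same basement membrane and help to keep the barrier closed, while smooth muscle cells of the arterioles hold contractile proteins and set vessel width. When an artery is blocked, the barrier of the vessels it fed is known to become leaky, and endothelial cells that meet inflammatory signals change their surface proteins.

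All values are the deposited RMA values, taken as log2 units, and a difference of 1 is a doubling. With 1 array per condition there is no replicate check and no p-value, and it is the small number of arrays that limits precision. A gene was called higher or lower where it differed by at least 1.5-fold, or 0.585 on the log2 scale, and lay above background on at least 1 of the arrays compared. The background limit of 4.79 was the 95th percentile of 81 olfactory, vomeronasal and taste receptor probe sets. The differences of these receptor probe sets had an SD of 0.206, 0.178, 0.175 and 0.194 in the WT injury, *P4htm*-/- injury, contralateral genotype and ipsilateral genotype comparisons, in this order. *P4htm* itself read 10.03 and 8.27 in the contralateral cortex of WT and *P4htm*-/- mice, and 10.02 and 8.23 in their ipsilateral cortex. The knockout values lie well above the background limit, and it is not known whether the deletion covers the probe set. In whole tissue, fewer cells of a type and less RNA per cell cannot be told apart. Of the 37 measured genes, 34 lay above background on all 4 arrays. The remaining 3, *Tie1*, *Anpep* and *Cnn1*, lay below it on every array, with values between 3.49 and 4.33. They encode an endothelial receptor, a pericyte aminopeptidase and calponin of smooth muscle, for which only the background limit can be given as an upper bound.

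**Figure D1:**
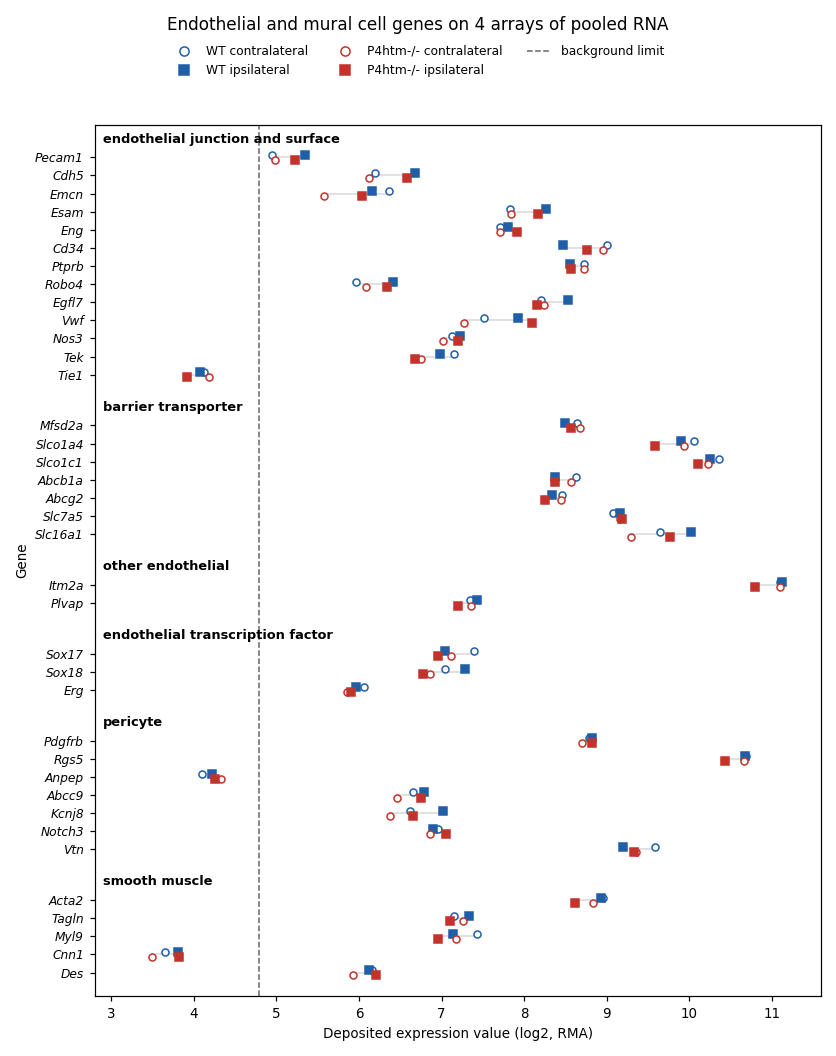
Deposited expression value (log2, horizontal axis) of the 37 measured genes, grouped by role, with 1 point for each of the 4 arrays of pooled RNA and the background limit at 4.79 as a dashed line. For most genes the 4 points lie close together, *Emcn* and *Vwf* are the most spread, and *Tie1*, *Anpep* and *Cnn1* lie left of the limit on every array.

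The first question was whether vessel genes differed between injured and uninjured cortex. They were nearly level: of the 37 genes, 0 were called in either direction in WT, and 1, *Vwf*, was higher in *P4htm*-/- mice, while 0 were lower. Over all genes tested, 2.42% were called higher and 0.443% lower after MCAO in WT, and 1.53% higher and 0.165% lower in *P4htm*-/- mice, so that the counts of 0 and 1 among 37 genes lie near the shares over all genes. The median difference of the 25 endothelial genes was 0.02 in WT and -0.08 in *P4htm*-/- mice, and that of the 12 mural genes 0.015 and 0.045, beside 0.00 and -0.01 over all genes.

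*Vwf* encodes von Willebrand factor, the clotting protein that endothelial cells store and release at injury and that platelets also carry. Its values, given here and in the following as contralateral then ipsilateral, first for WT and then for *P4htm*-/- mice, were 7.52, 7.92, 7.27 and 8.10. Both ipsilateral arrays lay above both contralateral arrays, and the share of all genes with this order was not counted. The injury difference was 0.83 in *P4htm*-/- mice, a 1.78-fold rise, and 0.40 in WT, where it stayed under the 1.5-fold limit. The array has 1 probe set for this gene. Some markers of blood-borne cells were also higher: the summed level of the neutrophil and monocyte markers, 5 of 8 measured, was 7.14, 8.51, 7.52 and 8.75 on the log2 scale, with *Ccr2* and *Plac8* below background on every array. This sum followed *S100a8* and *S100a9*, while *Csf3r*, the only other marker above background, differed by 0.10 in WT and 0.14 in *P4htm*-/- mice. That of the red cell markers, 4 of 6 measured, was 6.35, 7.01, 6.79 and 7.07, with *Hba-a1* and *Slc4a1* below background. In WT *Hbb-b2* was called higher, by 1.08, and so was *Alas2*, whose ipsilateral value of 4.79 lay at the background limit. None of the red cell markers was called higher after MCAO in *P4htm*-/- mice, where *Hbb-b2* differed by 0.22. The part of these blood-borne cell markers in the *Vwf* difference was not tested.

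Among the proteins that hold endothelial cells together, several lay above 0 in both genotypes without passing the limit. *Cdh5*, VE-cadherin of the adherens junction, read 6.20, 6.68, 6.12 and 6.58, an injury difference of 0.48 in WT and 0.46 in *P4htm*-/- mice. *Esam*, an adhesion molecule of the tight junction, read 7.83, 8.26, 7.84 and 8.17, with differences of 0.43 and 0.33. For both genes the ipsilateral arrays lay above the contralateral ones, with no overlap between the sides. The same order of the arrays was seen for *Pecam1*, which joins neighbouring endothelial cells, at 4.95, 5.35, 4.99 and 5.23, just above background. It was also seen for *Robo4*, a receptor that steadies the vessel wall, at 5.96, 6.41, 6.08 and 6.34. The share of all genes with this order was not counted. The order requires a difference above 0 in both genotypes, which 21.8% of the 12832 genes above background on all arrays had. *Cdh5* has another probe set, which lay below background and gave -0.43 in WT and 0.14 in *P4htm*-/- mice.

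The sialomucins ran the other way or split by genotype. *Cd34*, a sialomucin of the endothelial surface, read 9.0, 8.47, 8.95 and 8.76, lower on the ipsilateral side by -0.53 in WT, the lowest injury difference of any of the 37 genes, and by -0.19 in *P4htm*-/- mice. *Emcn*, endomucin, a sialomucin of capillary and venous endothelium, read 6.36, 6.16, 5.58 and 6.04. The *P4htm*-/- contralateral array stood below the other 3, so that the injury difference was -0.20 in WT and 0.46 in *P4htm*-/- mice.

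The receptors and enzymes of the endothelial membrane differed less. *Eng*, a co-receptor for TGF-beta, read 7.71, 7.80, 7.71 and 7.91. *Nos3*, the nitric oxide synthase that relaxes vessels, read 7.13, 7.22, 7.02 and 7.20. *Tek*, the angiopoietin receptor, read 7.15, 6.98, 6.75 and 6.68, and its injury differences of -0.17 and -0.07 were smaller than its genotype differences. *Ptprb*, the phosphatase that acts on VE-cadherin and Tek, read 8.73, 8.55, 8.72 and 8.57, below 0 in both genotypes by -0.18 and -0.15. *Egfl7*, a protein that endothelial cells secrete into their matrix, read 8.21, 8.53, 8.24 and 8.16, with 0.32 in WT and -0.08 in *P4htm*-/- mice. Its other 3 probe sets gave 0.28 to 0.45 in WT and -0.12 to 0.07 in *P4htm*-/- mice. Over the 12 junction and surface genes above background on all arrays, 7 lay above 0 in both genotypes and 3 below 0 in both. For comparison, 21.8% of the 12832 genes above background on all arrays lay above 0 in both genotypes and 33.4% below 0 in both.

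The 7 transporters of the barrier took the same sign in both genotypes, 5 below and 2 above 0, and 0 of them passed the limit. Their median injury difference was -0.12 in WT and -0.12 in *P4htm*-/- mice. *Abcb1a*, the drug efflux pump P-glycoprotein, read 8.63, 8.37, 8.57 and 8.37, so that both ipsilateral arrays lay under both contralateral arrays, by -0.26 and -0.20. Its other probe set gave -0.54 and -0.24. *Abcg2*, another efflux pump, read 8.46, 8.34, 8.45 and 8.25, and *Mfsd2a*, the carrier of omega-3 lipids that also restrains vesicle transport, read 8.64, 8.49, 8.68 and 8.57, again with the ipsilateral arrays lower. How many of all genes had this order was not counted. For comparison, 33.4% of the 12832 genes above background on all arrays lay below 0 in both genotypes.

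The organic anion carriers showed a genotype order as well. *Slco1a4* read 10.06, 9.90, 9.93 and 9.59, and *Slco1c1*, which carries thyroxine and is also made by astrocytes, read 10.36, 10.25, 10.23 and 10.11. Within either side the *P4htm*-/- array was the lower of the pair for both genes, by -0.13 and -0.31 for *Slco1a4* and -0.13 and -0.14 for *Slco1c1*. Except for -0.31, these were smaller in size than the receptor SDs of 0.175 contralaterally and 0.194 ipsilaterally. Of the 12832 genes above background on all arrays, 28.9% lay below 0 on both sides. The exceptions in direction of the injury difference were carriers of nutrients. *Slc16a1*, the lactate and ketone carrier MCT1, read 9.65, 10.02, 9.29 and 9.77, with differences of 0.37 and 0.48, and *Slc7a5*, the large neutral amino acid carrier, was level at 9.08, 9.16, 9.16 and 9.19. With the mean of its probe sets in place of the brighter one, the *Slc16a1* difference in *P4htm*-/- mice was 0.08. The other probe set in that mean lay below background on every array. Oligodendrocytes also express *Slc16a1*, and the summed level of the oligodendrocyte markers, 5 of 6 measured, was 14.88, 14.82, 14.79 and 14.67 on the 4 arrays.

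Outside these groups, *Itm2a*, a membrane protein enriched in brain endothelium, read 11.10, 11.12, 11.10 and 10.80. The *P4htm*-/- ipsilateral array stood alone, at -0.30 from its contralateral array and -0.32 from the WT ipsilateral array, and its other probe set gave -0.24 and -0.38. *Plvap*, which forms the diaphragms of leaky and fenestrated vessels and is low in a closed barrier, read 7.34, 7.43, 7.36 and 7.20. Fenestrated vessels are found in the choroid plexus, whose markers were read beside it. The summed level of 7 such markers was 9.32, 14.09, 9.55 and 13.66, and on the ipsilateral side nearly all of it was *Ttr*. *Ttr*, *Sostdc1* and *Kl* were higher after MCAO in both genotypes, *Clic6* and *Folr1* were not called, and *Kcne2* and *Otx2* stayed below background. *Plvap* differed by 0.09 in WT and -0.16 in *P4htm*-/- mice, and the part of choroid plexus markers in this was not tested.

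The endothelial transcription factors *Sox17*, *Sox18* and *Erg* hold the endothelial and arterial programme. *Sox17* read 7.39, 7.04, 7.11 and 6.96 and was lower ipsilaterally in both genotypes, by -0.35 and -0.15, but its other probe set gave -0.52 and 0.07. *Sox18* read 7.04, 7.28, 6.86 and 6.77, and *Erg* 6.06, 5.96, 5.85 and 5.90. None of the 3 passed the limit, and only *Sox17* kept its sign across genotypes.

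The 7 pericyte genes had a median injury difference of 0.04 in WT and 0.12 in *P4htm*-/- mice. *Pdgfrb*, the receptor through which endothelial PDGF-B recruits pericytes, was level at 8.78, 8.82, 8.70 and 8.82. *Rgs5*, a regulator of G protein signalling that marks pericytes, read 10.69, 10.68, 10.66 and 10.43, so that the *P4htm*-/- ipsilateral array stood below 3 nearly equal ones. Its other 3 probe sets gave injury differences of 0.13, -0.18 and -0.06 in *P4htm*-/- mice, so that 1 of them had the opposite sign. *Vtn*, vitronectin, a matrix protein that pericytes secrete, read 9.58, 9.20, 9.36 and 9.33, lower by -0.38 in WT and by -0.03 in *P4htm*-/- mice, and its other probe set gave -0.25 and -0.03. *Notch3*, the receptor of mural cells that arterial endothelium signals to, read 6.96, 6.90, 6.86 and 7.05, which showed no shared direction.

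*Kcnj8* and *Abcc9* encode the pore and the regulatory subunit of the ATP-sensitive potassium channel of pericytes, and in the RefSeq gene order they are immediate neighbours on chromosome 6. *Kcnj8* read 6.62, 7.02, 6.38 and 6.65, and *Abcc9* 6.65, 6.79, 6.46 and 6.75. In both genes the ipsilateral array was above the contralateral array of its genotype, by 0.40 and 0.27 for *Kcnj8* and 0.14 and 0.29 for *Abcc9*. Between the genotypes *Kcnj8* was lower in *P4htm*-/- mice on either side, by -0.24 and -0.37, and *Abcc9* by -0.19 and -0.04. The other *Abcc9* probe set above background gave -0.08 and 0.03, so the ipsilateral order of that gene is not settled. All these differences were below the 1.5-fold limit.

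The contractile genes of smooth muscle had a median injury difference of -0.02 in WT and -0.16 in *P4htm*-/- mice. *Acta2*, smooth muscle actin, read 8.95, 8.93, 8.83 and 8.62, and *Myl9*, the regulatory myosin light chain, 7.43, 7.14, 7.17 and 6.96. For both genes the *P4htm*-/- ipsilateral array was the lowest of the 4. *Tagln*, transgelin, an actin-binding protein, read 7.15, 7.33, 7.26 and 7.10, also lowest on that array. *Des*, desmin, an intermediate filament of muscle, read 6.16, 6.12, 5.93 and 6.21, highest there. Neither of these kept 1 sign of the injury difference across genotypes. Contractile genes can also come from skeletal muscle left on the tissue, and the summed level of 6 skeletal muscle markers was 8.40, 8.34, 8.39 and 8.32, with *Myh1*, *Myh4* and *Tnnt3* below background on every array. Most of this sum was *Acta1*, at 7.78, 7.72, 7.76 and 7.58, which also stands in the list of further smooth muscle genes read below.

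Serum response factor, a regulator of contractile genes, binds a motif known as the CArG box. This motif reads the same on both strands and was searched in the 250 bases before each gene start in RefSeq promoters of GRCm38.p6. Only the strict form CCWWWWWWGG was searched, where W is A or T. A box that departs from this form at any base, or lies elsewhere, would not be found. Promoters of 4 of the 5 contractile genes were in the table, all but *Tagln*, and 1 of them, *Myl9*, held a match. It is printed as the only promoter among the 31 promoters of 25 members in the table to hold this strict form, and 1.47% of all 32851 promoters do. The stretch below lies at chr2:156775263-156775352 on the plus strand, 5′ to 3′, with the box in capitals, 161 to 152 bases before the start.
Myl9: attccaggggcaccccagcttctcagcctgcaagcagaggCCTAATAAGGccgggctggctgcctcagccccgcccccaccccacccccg
The match is a description of these letters and not a measured binding site. *Myl9* is the gene whose 4 values are given above, with the lowest value on the *P4htm*-/- ipsilateral array.

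**Figure D2:**
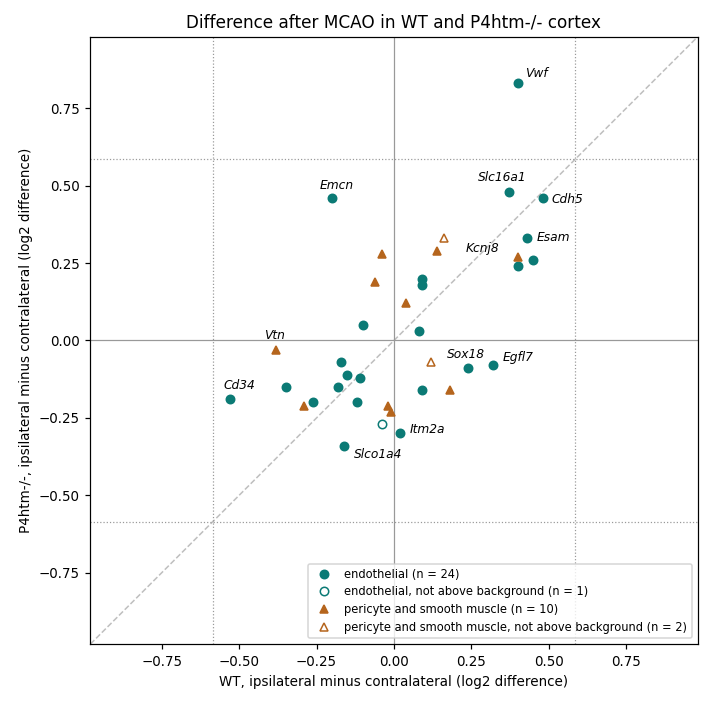
Ipsilateral minus contralateral difference (log2) of each measured gene in WT (horizontal axis) and *P4htm*-/- mice (vertical axis), with circles for endothelial and triangles for mural genes, open where the gene was below background, dotted lines at 1.5-fold and a dashed line of equal difference. Only *Vwf*, at 0.40 and 0.83, lies past a dotted line, and *Emcn*, at -0.20 and 0.46, lies farthest from the dashed line.

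The next question was whether vessel genes differed between the genotypes. On the contralateral side 1 of the 37 genes, *Emcn*, was lower in *P4htm*-/- mice and 0 were higher, where 0.159% of all genes tested were called lower and 0.227% higher. *Emcn* fell by 0.78 on the log2 scale, from 6.36 to 5.58, which is 1.72-fold, and on the ipsilateral side the difference was -0.12. The array has 1 probe set for it, and the same *P4htm*-/- contralateral value enters both this difference and the injury difference of that genotype. *Tek* and *Slc16a1* followed at -0.40 and -0.36, under the limit, and the mean of the *Slc16a1* probe sets gave -0.105. The dimmer probe set in that mean lay below background on every array.

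On the contralateral side, 25 of the 37 genes lay below 0, 10 above and 2 at 0, with a median of -0.08, while over all genes the median was 0.00 and 49.3% lay below 0. The mural genes were on this side by 10 of 12, with a median of -0.14 and a range of -0.26 for *Myl9* to 0.23 for *Anpep*, which was below background. The further lists named below were divided in direction. The median was 0.06 for 15 further pericyte genes and 0.03 for 16 basement membrane genes, each with 10 above 0. It was -0.015 for 18 further smooth muscle genes and -0.02 for 30 further endothelial genes. Lower medians were those of PDGF, Notch and TGF-beta genes at -0.05 and further transporters at -0.07. VEGF and angiopoietin genes had one of -0.08, and Wnt genes one of -0.09. The endothelial genes had a median of -0.05, with 15 of 25 below 0. All 3 transcription factors were below 0, *Sox17* by -0.28, *Erg* by -0.21 and *Sox18* by -0.18. The markers of other cell types had medians of the same sign in most lists, -0.06 for neurons, -0.055 for astrocytes, -0.16 for oligodendrocytes, -0.08 for microglia and -0.10 for meningeal fibroblasts. That of skeletal muscle was -0.02. Medians above 0 were 0.04 for choroid plexus, 0.065 for blood cells and 0.50 for neutrophils and monocytes. In each of these lists 2 genes lay below background on every array. *Hbb-b2* differed by 0.98 and *S100a9* by at least 0.60.

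On the ipsilateral side 0 of the 37 genes were called in either direction, where 0.0898% of all genes tested were called higher and 0.576% lower in *P4htm*-/- mice. The median over the 37 genes was -0.09, with 24 below 0, 11 above and 2 at 0, beside a median of -0.01 and 50.3% below 0 over all genes. The endothelial genes had a median of -0.09 with 18 of 25 below 0, and the mural genes a median of -0.02 with 6 of 12 below 0. Markers of other cells differed here too: oligodendrocyte markers had a median of -0.19 with 5 of 5 below 0, microglial markers one of -0.075 with 5 of 6 below 0, and neuronal markers one of 0.135 with 6 of 6 above 0. The remaining lists had medians of -0.075 for meningeal fibroblasts, -0.055 for astrocytes, -0.10 for choroid plexus and -0.02 for blood cells. Those of neutrophils and monocytes and of skeletal muscle were 0.18 and 0.075. Their part in the vascular medians was not tested. *Sox18* was lowest, at -0.51. *Egfl7* and *Kcnj8* followed, both at -0.37, and the other 3 *Egfl7* probe sets gave -0.32 to -0.42. *Itm2a* was at -0.32, and *Slco1a4* and *Acta2* at -0.31. *Rgs5* was at -0.25, and its other 3 probe sets gave -0.13 to -0.29. *Cd34* was highest, at 0.29, followed by *Vwf* at 0.18. Of the 24 endothelial genes above background on all arrays, 11 lay below 0 on both sides and 2 above 0 on both, while 28.9% of the 12832 genes lay below 0 and 22.0% above 0 on both sides.

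**Figure D3:**
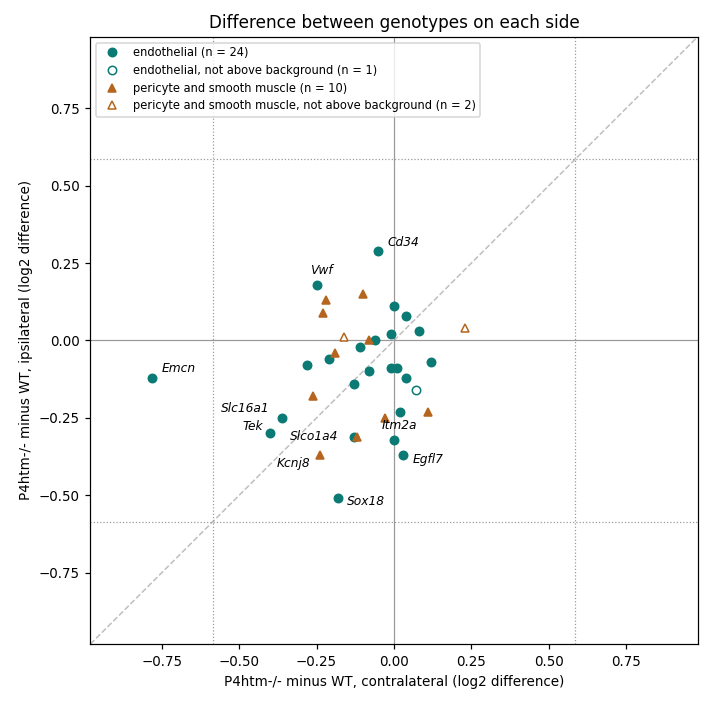
*P4htm*-/- minus WT difference (log2) of each measured gene on the contralateral (horizontal axis) and ipsilateral side (vertical axis), with symbols and lines as in the plot of the injury differences. Most points lie left of or below 0 and within the dotted 1.5-fold lines, and only *Emcn*, at -0.78 contralaterally, lies past one.

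Set side by side, the injury difference was larger in *P4htm*-/- than in WT mice by 0.66 for *Emcn*, 0.43 for *Vwf*, 0.35 for *Vtn*, 0.34 for *Cd34* and 0.32 for *Des*. It was smaller by -0.40 for *Egfl7*, -0.34 for *Tagln*, -0.33 for *Sox18* and -0.32 for *Itm2a*. For *Cd34* this came mainly from the ipsilateral side, where WT was lower, for *Vtn* from both sides, and for *Itm2a* from the *P4htm*-/- ipsilateral array alone. With 1 array per condition these differences between genotypes could not be tested. How far probe sets of the same gene differ gives a scale: over 15 further probe sets of 11 genes, all above background, the injury difference departed from that of the chosen probe set by a median of 0.09 in WT and 0.06 in *P4htm*-/- mice, and by up to 0.28 and 0.36. For the genotype differences the median gap was 0.14 contralaterally, as large as the mural median there, and 0.07 ipsilaterally. The sign was shared by 12, 12, 11 and 7 of the 15 in the WT injury, *P4htm*-/- injury, contralateral and ipsilateral comparisons. A difference of exactly 0 on either probe set was counted as not shared. Such values came from *Eng*, *Itm2a* and *Rgs5* contralaterally, and from *Eng*, *Abcb1a* and *Pdgfrb* ipsilaterally. Signs were opposite for a probe set of *Egfl7* contralaterally, and for *Ptprb*, *Sox17*, *Abcc9*, *Notch3* and *Vtn* ipsilaterally. The ipsilateral counts below 0 thus rest in part on the choice of probe set. Across processing settings the contralateral medians stayed at -0.073 to -0.025 for endothelial and -0.17 to -0.14 for mural genes.

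Genes of 8 further vascular lists were read in the same way. The lists were chosen from known roles but with earlier results of these data known, so counts beside all genes are descriptions only. Vessel growth is driven by the VEGF and angiopoietin ligands and their receptors. Of 17 such genes, 2 were higher in WT after MCAO, *Adm* and *Angpt2*, and 0 in *P4htm*-/- mice, beside 2.42% and 1.53% of all genes. The list medians were 0.13 and 0.19. *Adm*, adrenomedullin, a vasodilating peptide, read 5.02, 6.12, 5.63 and 5.92, a rise of 1.10 in WT beside 0.29 in *P4htm*-/- mice, and it was higher by 0.61 in *P4htm*-/- than in WT contralateral cortex. Its other probe set read 5.06, 5.54, 4.84 and 5.54, which gave 0.48, 0.70 and -0.22 for these 3 differences. The *P4htm*-/- contralateral value of *Adm* thus differed in direction between probe sets. *Angpt2*, the ligand that loosens vessels for sprouting, read 5.83, 6.73, 6.25 and 6.76, a rise of 0.90 in WT and 0.51 in *P4htm*-/- mice, and its other probe set lay below background.

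Of 30 further endothelial genes, 6 were higher after MCAO in WT and 5 in *P4htm*-/- mice, where 2.42% and 1.53% of all genes were called higher, and 0 were lower in either. As the list was chosen with earlier results known, this excess is not independent evidence. The list medians were 0.205 and 0.19, and 22 and 24 of the 30 lay above 0, beside 49.3% and 44.9% of all genes. *Cd93*, a surface glycoprotein of sprouting endothelium that myeloid cells also carry, read 7.41, 8.26, 7.46 and 8.34, and rose by 0.85 and 0.88. Its other probe set above background rose by 0.78 and 0.82. *Procr*, the receptor of the anticoagulant protein C, read 5.10, 6.07, 4.71 and 6.05, and rose by 0.97 in WT and by at least 1.26 in *P4htm*-/- mice, where the contralateral value was below background. *Lrg1*, a secreted glycoprotein that modifies TGF-beta signalling, read 5.36, 5.97, 4.99 and 5.92, and rose by 0.61 and 0.93. *Sox7* and *Thbd*, a factor of the Sox17 and Sox18 family and the thrombin receptor thrombomodulin, also rose, by 0.60 and 0.85 and by 0.60 and 0.59. *Ecscr*, an endothelial surface protein that promotes migration, read 5.53, 6.73, 5.78 and 6.28, and rose in WT by 1.20, beside 0.50 in *P4htm*-/- mice.

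The lists of mural signalling and structure held few calls, and calls were few over all genes too. Of all genes tested, 2.42% were called higher and 0.443% lower after MCAO in WT, and 1.53% and 0.165% in *P4htm*-/- mice. Between the genotypes 0.227% were called higher and 0.159% lower contralaterally, and 0.0898% and 0.576% ipsilaterally. Counts of 0 in lists of this size thus lie near the shares over all genes. Of 25 genes of PDGF, Notch and TGF-beta signalling and 15 of the Wnt pathway that sets up the barrier, 0 were called in any comparison, and the list medians after MCAO were 0.06 and 0.04, and -0.11 and 0.05, in WT and *P4htm*-/- mice. Between the genotypes, 12 of the 15 Wnt genes lay below 0 contralaterally, where 49.3% of all genes did, with a median of -0.09, and 9 of the 15 lay above 0 ipsilaterally, with a median of 0.06. Among 18 further barrier transporters and 18 further smooth muscle genes 0 were called. Of 15 further pericyte genes, *Ifitm1*, an interferon-induced membrane protein that other cells also make, rose in both genotypes, from 6.97 to 8.94 in WT and from 7.20 to 8.71 in *P4htm*-/- mice. *Zic1*, a transcription factor of brain pericytes and of meningeal and some neuronal cells, read 9.36, 9.83, 9.50 and 9.22, and was lower by -0.61 in *P4htm*-/- than in WT ipsilateral cortex. Its other probe set gave -0.34.

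The basement membrane shared by endothelium and pericytes was represented by 16 genes, whose median difference after MCAO was 0.19 in WT and 0.08 in *P4htm*-/- mice. The collagens *Col4a1* and *Col4a2* lay at 0.42 and 0.39 in WT and at 0.41 and 0.42 in *P4htm*-/- mice, under the limit. *Nid2*, a linker protein of the membrane, was called higher in WT, but 3 of its 4 values were below background, and against the background limit it rose by at least 0.16. Markers of other cells were read beside these lists: of 8 meningeal fibroblast markers 4 were higher after MCAO in each genotype, beside 2.42% and 1.53% of all genes, with medians of 0.505 and 0.63 and a summed level of 10.92, 11.37, 10.75 and 11.26. Of 6 microglial markers 0 were called, with a summed level of 12.50, 12.60, 12.39 and 12.53. Neurons summed to 15.54, 15.34, 15.49 and 15.48, and astrocytes to 14.62, 14.52, 14.57 and 14.61, with *Gfap* higher by 2.13 and 1.83. The part of these cells in the vascular values was not tested.

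**Figure D4:**
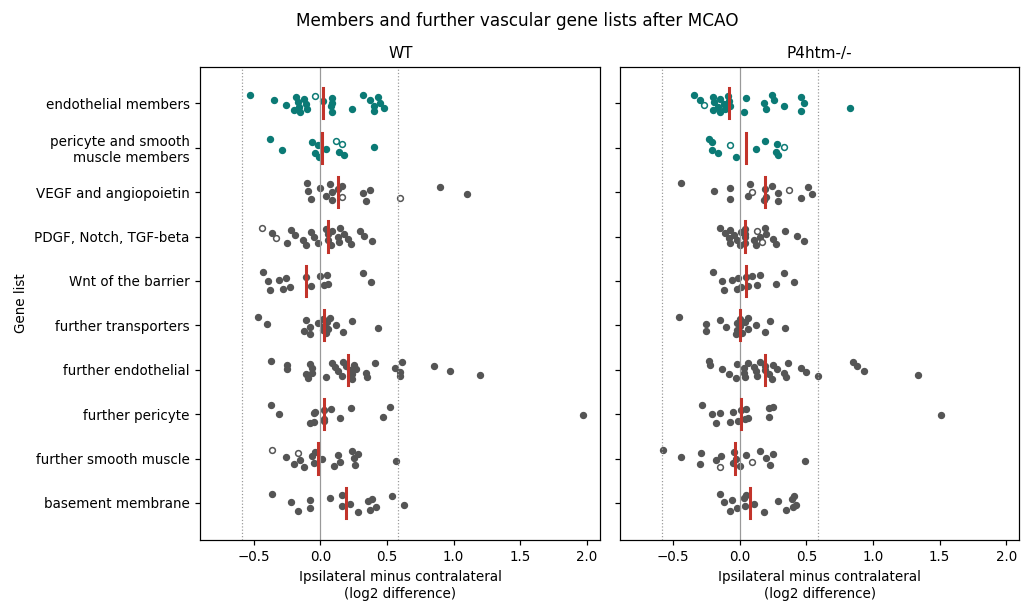
Ipsilateral minus contralateral difference (log2, horizontal axis) in WT and *P4htm*-/- mice for the 25 endothelial and 12 mural genes (green) and the genes of the 8 further lists (grey), 1 point per gene, open where below background on every array, with the median as a red bar and dotted lines at 1.5-fold. The medians of all lists lie between -0.11 and 0.205, and the genes past the upper line come mainly from the further endothelial list.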

How the data were processed

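Cortical RNA of 4 conditions was measured on 1 Affymetrix mouse expression array each. The values deposited by the authors are RMA values on a log2 scale, 1 for each probe set, with RMA named in the submitters' processing notes. RMA corrects background and equalises the arrays, so a change shared by all genes is removed. Its version was not given in the sources used here, nor was the base of the log, and 2 was taken from the range of 2.51 to 14.9.

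Of 45101 probe sets, 34958 name 1 gene. Symbols were updated through Entrez gene IDs (RefSeq, GRCm38.p6) for 34754. Each gene was read from its probe set of highest mean, and 13448 of 18194 genes were above background on at least 1 array. The members and lists were chosen with earlier results of these data known. All members are named. From the further lists up to 3 called genes per comparison are named, and *Sox7*, *Thbd*, *Col4a1*, *Col4a2* and *Gfap* were added after their values were seen, as were marker genes. Differences were taken between arrays, with no test. A difference against a value below background is given as a bound. The counting was tested on simulated data. Python 3.11.15, numpy 2.4.6, pandas 2.3.3, scipy 1.17.1, matplotlib 3.10.9, R 4.3.3 and limma 3.58.1 were used.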

Additional observations from a re-analysis of the deposited data

Results flagged for a closer look

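Among the vessel genes and the named genes of the further lists, 4 genes had differences of opposite direction in the comparisons set side by side, at least 1.5-fold apart. With 1 array per condition the difference between the comparisons was not tested. *Emcn* differed after MCAO by -0.20 in WT and by 0.46 in *P4htm*-/- mice, a difference of 0.66. *Adm* differed between the genotypes by 0.61 contralaterally and -0.20 ipsilaterally, a difference of -0.81, and its other probe set gave -0.22 and 0.00. *Ecscr* differed between the genotypes by 0.25 contralaterally and -0.45 ipsilaterally, a difference of -0.70. *Zic1* differed after MCAO by 0.47 in WT and -0.28 in *P4htm*-/- mice, and between the genotypes by 0.14 contralaterally and -0.61 ipsilaterally, a difference of -0.75 either way. The other *Zic1* probe set gave 0.22, -0.20, 0.08 and -0.34 for these 4 values.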

How the results depend on the processing

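Medians and counts of the vessel genes were recomputed with the mean or the median of a gene's probe sets, median centring, cyclic loess, no detection filter, background needed on both arrays, a higher background, a 2-fold limit, and detected members only. No called value changed its direction. With the 2-fold limit the counts of endothelial genes higher after MCAO in *P4htm*-/- mice and lower in *P4htm*-/- contralateral cortex went from 1 to 0. With background at the 99th percentile of the receptor probe sets, 6.595, the latter count was also 0. The difference between the mural and the endothelial median crossed 0 in WT after MCAO, from -0.065 to 0.041, and in ipsilateral cortex, from -0.02 to 0.072, so no order of these groups is given. The mural median in WT after MCAO itself lay between -0.015 and 0.066. The mean of probe sets moved 6 single values, among them *Cdh5* after MCAO in WT from 0.48 to 0.025, *Cdh5* ipsilaterally from -0.10 to 0.125 and *Des* in WT from -0.04 to 0.185. For *Cdh5* and *Des* the other probe set in the mean lay below background on every array. The mean of probe sets also lowered every count over all genes. After MCAO in WT, genes higher went from 322 to 242 and genes lower from 59 to 35. In *P4htm*-/- mice they went from 204 to 158 and from 22 to 11. Between genotypes, genes higher in *P4htm*-/- mice went from 30 to 16 contralaterally and from 12 to 8 ipsilaterally. Genes lower went from 21 to 16 and from 77 to 58. The causes were not tested. No paired analysis was possible because each condition has 1 array, and no array could be left out.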
